A study of Mus musculus with 2 samples.

Results

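The 9 genes C1qa, C1qb, C1qc, Ms4a7, Maf, Cebpb, Apoe, Trem2 and Mrc1 are genes of macrophage complement, lipid handling and macrophage transcription, and they were followed in sorted Langerhans cells. They were chosen by name with earlier results of these arrays known, so their values are a description and support no test. Each had exactly 1 probe set with 1 gene symbol in the deposited table, and the 9 are among 19937 genes with such a probe set. All 9 were read above the floor on both arrays. The floor is an intensity of 48.7, the middle value of the whole table with both arrays pooled, and 12843 genes reached it on at least 1 array.

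The series holds 2 arrays of Langerhans cells, the Langerin-bearing antigen-presenting cells of the epidermis. The Il34+/LacZ array came from mice with a LacZ cassette in 1 copy of Il34 and the Il34LacZ/LacZ array from mice with the cassette in both. Animals of both genotypes were 8 to 12 weeks old and had received 30 min of ultraviolet light, and their Langerin+Epcam+ cells were sorted 21 days later, so neither group is wild type or unexposed. The labels do not say how many animals gave the RNA of each array. Each genotype has 1 array (n = 1), so no difference below has a replicate check and none was tested. In a bulk sort, fewer cells of a type and less RNA per cell cannot be told apart.

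C1q is the recognition part of the classical complement pathway. It is assembled from equal numbers of A, B and C chains and, unlike most complement proteins, is made largely by macrophages and dendritic cells rather than by the liver. APOE carries lipids out of macrophages, and TREM2 is a receptor that senses lipids and signals through the adaptor TYROBP. MAF and C/EBP beta are basic leucine zipper transcription factors used by macrophages. IL-34, made in skin mainly by keratinocytes, is a ligand of the CSF1 receptor needed by resident Langerhans cells, and monocytes can enter the epidermis after ultraviolet injury.

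The upstream sequences of 4 of the genes are shown because C1qb and C1qc are neighbouring protein-coding genes on chromosome 4, with C1qa next to C1qc, because Ms4a7 had the largest difference between the arrays and Mrc1 nearly none. They are the 250 bases before the start site in RefSeq (build GRCm38.p6), 5′ to 3′ on the strand of the gene, and lie at chr4:136886201-136886450, minus strand for C1qb, chr4:136892915-136893164, minus strand for C1qc, chr19:11336147-11336396, minus strand for Ms4a7 (the more upstream of its starts) and chr2:14229164-14229413, plus strand for Mrc1. Capitals mark the letters TGCTGA, a half-site bound by MAF proteins, and GAGGAA, a core bound by the myeloid factor PU.1, on either strand.
C1qb: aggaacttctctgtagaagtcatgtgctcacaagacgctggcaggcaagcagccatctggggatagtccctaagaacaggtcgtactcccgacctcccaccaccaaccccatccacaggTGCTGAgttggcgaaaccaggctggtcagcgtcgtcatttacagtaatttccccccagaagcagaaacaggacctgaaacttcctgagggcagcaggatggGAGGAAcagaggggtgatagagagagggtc
C1qc: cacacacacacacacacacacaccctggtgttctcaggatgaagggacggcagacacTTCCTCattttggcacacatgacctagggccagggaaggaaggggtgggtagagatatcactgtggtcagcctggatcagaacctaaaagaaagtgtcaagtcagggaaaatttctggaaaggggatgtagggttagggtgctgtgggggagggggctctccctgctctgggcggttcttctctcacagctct
Ms4a7: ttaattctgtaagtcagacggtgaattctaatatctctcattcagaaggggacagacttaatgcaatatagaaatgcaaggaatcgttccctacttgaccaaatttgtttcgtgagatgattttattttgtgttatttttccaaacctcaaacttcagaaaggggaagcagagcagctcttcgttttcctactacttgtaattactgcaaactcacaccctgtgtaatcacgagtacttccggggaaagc
Mrc1: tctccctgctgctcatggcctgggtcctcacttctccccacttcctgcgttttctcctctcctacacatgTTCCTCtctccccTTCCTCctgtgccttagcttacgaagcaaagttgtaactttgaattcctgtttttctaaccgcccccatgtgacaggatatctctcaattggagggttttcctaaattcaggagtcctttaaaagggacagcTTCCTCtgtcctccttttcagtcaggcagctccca
The C1qb stretch held TGCTGA once, beginning 131 bases before the start, and GAGGAA once, beginning 30 bases before it. The C1qc stretch held GAGGAA once on the opposite strand, 193 bases upstream, and the Mrc1 stretch 3 times on the opposite strand. The Ms4a7 stretch held neither.

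RefSeq upstream windows matched 7 of the 9 genes, 10 windows in all since Apoe had 3 starts and Ms4a7 another; no window of C1qa or Maf was used here. TGCTGA was in 1 of the 10 windows and in 16.1% of all 32851 windows of the same length. GAGGAA was in 6 of the 10, those of C1qb, C1qc, Trem2 and Mrc1 and 2 of Apoe, and in 23.3% of all. A pattern of a C/EBP site, TTGCNNAA on either strand, was in 0 of the 10 and in 9.56% of all. TATAAA was in 1 of the 10, at the second Apoe start, and in 12.4% of all. These matches describe letters in a window, not bound sites, and genes with several starts enter more than once.

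Ms4a7, C1qa and Maf stood out as brighter on the Il34LacZ/LacZ array, C1qb, C1qc and Cebpb were slightly brighter, and Apoe, Trem2 and Mrc1 were close to level. As deposited, 8 of the 9 genes were higher there, beside 43.3% of all genes at or above the floor, and Apoe was lower. After centring of each array on its median 6 were higher, and with the arrays scaled to their 75th percentile all 9 were, the genes that changed sides being Apoe, Trem2 and Mrc1. Values were compared as log2(intensity + 16), a scale that understates the change of dim genes, and each difference is Il34LacZ/LacZ minus Il34+/LacZ. Of the 9, Ms4a7, C1qa and Maf (3 genes) were at least 1.5-fold higher, against 9.36% of all 12843 genes, and 0 of the 9 were at least 1.5-fold lower, against 28.2% of all genes. Ms4a7 and C1qa also passed 2-fold, which 1.67% of all genes did in that direction and 12.1% in the other, where 0 of the 9 did. The rule of choice used this contrast, so nothing is read from these counts. The median difference of the 9 genes was 0.40, beside -0.16 over all genes at or above the floor. The only error the file holds is the disagreement between probe sets of one gene, an SD of 0.63 on the log2 scale over 614 genes, or 1.55-fold. It covers probe noise and isoforms, not animals or sorts. As deposited, the differences of 6 of the 9 genes lay within 1 such SD of 0.

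**Figure D1:**
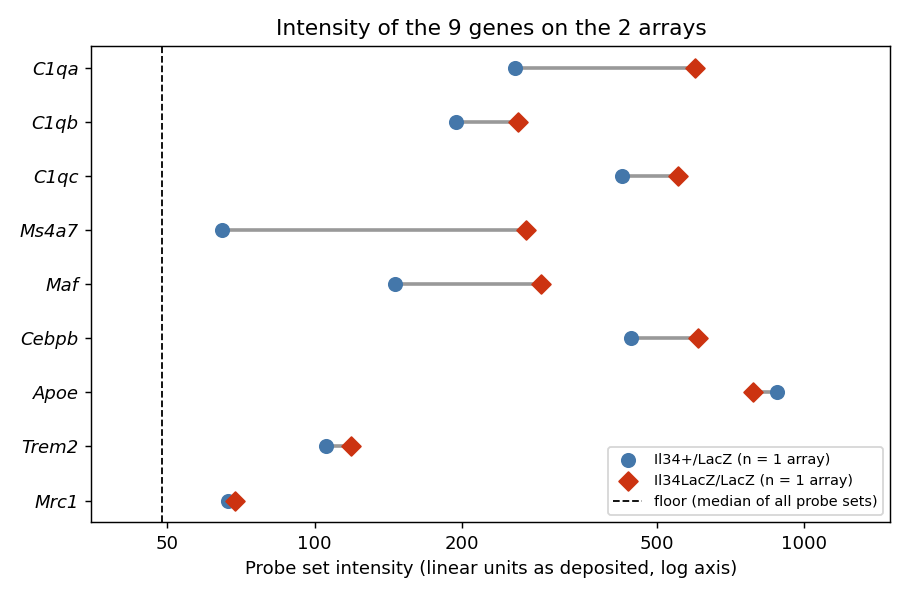
Deposited probe set intensity (log axis) of the 9 genes on the Il34+/LacZ array (blue circles) and the Il34LacZ/LacZ array (red diamonds), 1 array each; the dashed line is the floor of 48.7. Ms4a7 moves furthest, from 64.8 to 270.0, and Apoe is the single gene whose red diamond lies to the left.

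The difference between the arrays depended on the level of a gene, so each of the 9 was set against the 500 genes nearest to it in mean level. Those neighbours had median differences from -0.75 around C1qa to 0.23 around Mrc1, with SDs of 0.54 to 0.72. A gene of middle level therefore typically read lower on the Il34LacZ/LacZ array. Removal of a loess trend with level took the median of the 9 genes to 0.99, and put 6 of them past 1.5-fold upward and 0 downward, where 13.9% of all genes passed upward and 18.6% downward. The genes that joined were C1qb, C1qc and Cebpb, at 0.93, 0.99 and 1.06. These values exceed the probe set SD of 0.63, which was itself computed without removal of the trend. With the trend removed 4 of the 9 passed 2-fold upward and 0 downward, beside 4.16% and 7.07% of all genes. The shares of all genes as deposited set a gene under the floor on 1 array at it. The trend-removed shares do not.

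**Figure D2:**
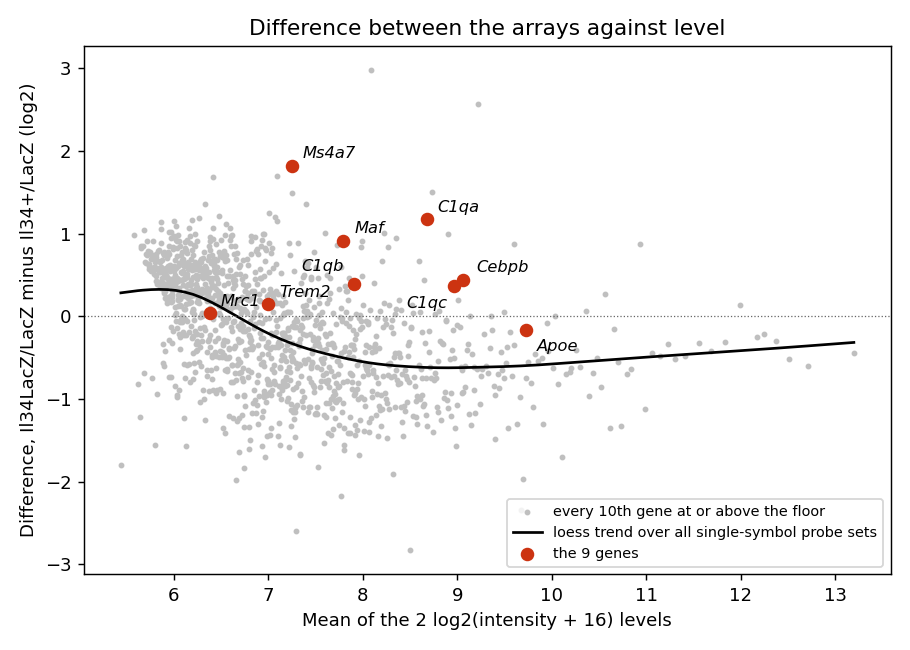
Difference between the arrays (log2) against the mean of the 2 log2(intensity + 16) levels, for every 10th gene at or above the floor (grey) and the 9 genes (red); the line is the loess trend. The trend lies below 0 at middle and high levels, where C1qa, C1qb, C1qc, Maf, Cebpb and Apoe lie above it, while Mrc1 lies below it near the floor.

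The 3 C1q chains were all brighter on the Il34LacZ/LacZ array. The Il34+/LacZ array gave C1qa, which encodes the A chain, 256.2, and the Il34LacZ/LacZ array 598.8, so C1qa differed by 1.18 or 2.26-fold. C1qb, the B chain, read 194.3 and 260.6 in the same order, a difference of 0.40 or 1.32-fold. C1qc, the C chain, read 424.8 and 552.6, a difference of 0.37 or 1.29-fold. The order of the arrays is thus shared by the chains as deposited, but the differences of C1qb and C1qc lay within the probe set SD of 0.63. The chains were chosen with their values known and are not replicates of each other.

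C1qa differed from C1qb by 0.78 and from C1qc by 0.81, whereas C1qb and C1qc were 0.03 apart. A gap between 2 genes has an SD of 0.90 if each gene carries the spread seen between probe sets of other genes, isoforms included. By that yardstick the larger shift of C1qa lies within 1 SD. Of the 500 genes nearest in level, 99.0% had a smaller difference than C1qa (95% exact binomial interval 97.7% to 99.7%), 89.6% than C1qb and 95.6% than C1qc. The interval covers the number of neighbours only. Once the trend with level was removed the chains differed by 1.79, 0.93 and 0.99 in the order A, B and C. Only C1qa lay above the central 95% of its neighbours, which reached 0.75.

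The genes nearest to the mean of the chains on both log2 levels were Bcr, Gatad1 and Psmd7, at distances of 0.04, 0.06 and 0.09 log2 units. They read 270.6 and 434.2, 264.7 and 441.6, and 265.6 and 464.9 in Il34+/LacZ and Il34LacZ/LacZ, respectively. With a pair of values per gene such likeness is a matter of level and difference only.

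None of the other complement genes passed 1.5-fold higher as deposited. Of 31 listed genes 28 had a single-symbol probe set and 14 reached the floor, of which 0 were at least 1.5-fold higher and 3 lower. Their median was -0.10, and 0.02 after removal of the trend, which left 1 up and 0 down. Of the components that act with or after C1q in the classical pathway, C1ra, C1s1, C2 and C4b were near or under the floor. They read 58.2 and 52.7, 9.7 and 13.5, 24.6 and 31.0, and 29.0 and 39.7, respectively. Other components of the pathway are not covered by this. The receptor of the C5a fragment, C5ar1, had the largest higher reading, 96.8 and 145.8 or 1.43-fold.

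The 3 lower complement genes were well above the floor. Cfp, which encodes properdin, a stabiliser of the alternative pathway convertase, read 1525.8 and 926.3, 1.64-fold lower in Il34LacZ/LacZ. Itgam, the alpha chain of complement receptor 3, read 593.7 and 326.4, 1.78-fold lower. C1qbp, a mitochondrial protein named for its binding to C1q, read 484.8 and 264.5, 1.79-fold lower. With the trend removed these differed by -0.15, -0.21 and -0.22, each within the probe set SD.

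Ms4a7, a tetraspan membrane protein gene of macrophages, had the largest difference of the 9 genes. It read 64.8 in Il34+/LacZ, 1.33 times the floor, and 270.0 in Il34LacZ/LacZ, 5.54 times the floor, a difference of 1.82 or 3.54-fold. The probe set thus went from near the floor to well above it. Of its 500 neighbours 99.4% had a smaller difference, and only 3 had a larger one. Within each array's ranking of all 19937 genes it stood at the 54.6 percentile in Il34+/LacZ and at the 91.2 percentile in Il34LacZ/LacZ, the widest shift of the 9.

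The other MS4A genes, which lie in a cluster with Ms4a7 on chromosome 19, were divided. Of 15 measured, 8 reached the floor; 3 passed 1.5-fold upward and 2 downward, and the median was -0.26 (0.15 with the trend removed, 1 up and 2 down). Ms4a15, Ms4a8a and Ms4a10 read 66.9 and 151.3, 50.9 and 93.4, and 48.9 and 87.0, respectively. Ms4a6d read 257.3 and 89.8, 2.58-fold lower and -0.98 with the trend removed, and Ms4a6c 401.4 and 236.2, 1.65-fold lower but -0.13 with it removed. Ms4a4b, near the floor, read 80.7 and 47.7, at least 1.49-fold lower and -0.83 with the trend removed. The protein-coding genes next to Ms4a7 on the chromosome are Ms4a14, not analysed here, and Ms4a4a, which was under the floor on both arrays at 34.4 and 25.2.

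Maf and Cebpb, the transcription factor genes of the set, were both brighter on the Il34LacZ/LacZ array. Maf went from 145.8 (Il34+/LacZ) to 289.6 (Il34LacZ/LacZ), a difference of 0.92 or 1.89-fold. Of its neighbours in level 98.2% had a smaller difference, and it was 1.42 higher with the trend removed. Cebpb, which encodes a factor of myeloid differentiation and inflammatory gene expression, read 442.8 and 608.1, a difference of 0.44 or 1.36-fold, within the probe set SD. For Cebpb the neighbours had a median of -0.63, so that 97.2% of them had a smaller difference, and it was 1.06 higher with the trend removed.

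Relatives of these factors had a negative median as deposited. Of 20 listed MAF, C/EBP and other myeloid factor genes 18 were measured and 17 reached the floor, 1 of them past 1.5-fold upward and 8 downward, and their median was -0.57. Removal of the trend left 2 up and 1 down around a median of -0.01. Mafa, a MAF factor of pancreatic beta cells, was the higher one at 60.4 and 147.1, 2.13-fold. Cebpd, a C/EBP factor of acute responses, read 182.7 and 80.7, 2.05-fold lower, and Cebpg 357.4 and 164.6, 2.07-fold lower. Spi1, which encodes PU.1, read 1758.6 and 885.7, 1.97-fold lower. With the trend removed Cebpd was -0.77, whereas Cebpg at -0.50 and Spi1 at -0.43 were short of 1.5-fold.

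MAF is also made by T cells, and T cell genes were read in this sort. All 9 measured T cell markers were above the floor on both arrays, with a summed intensity of 5692 in Il34+/LacZ and 5918 in Il34LacZ/LacZ. Cd3g, a chain of the T cell receptor complex, read 1496.3 and 1635.3, and Cd5, a surface protein that dampens T cell receptor signals, read 139.9 and 383.4, 2.56-fold higher. The coreceptor gene Cd4 read 104.2 and 55.0, 1.69-fold lower, and Cd3d, another chain of the complex, 743.9 and 537.3, 1.37-fold lower. Of the 9 markers 1 passed 1.5-fold upward and 1 downward, and their median difference was 0.01 (0.58 with the trend removed, 4 up and 1 down). The part of T cell RNA in the value of Maf was not tested.

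Apoe was the single gene of the 9 that read lower on the Il34LacZ/LacZ array. Its intensity was 880.6 (Il34+/LacZ) against 785.3 (Il34LacZ/LacZ), a difference of -0.16 or 1.12-fold, within the probe set SD. Genes of its level had a median of -0.62, and 80.2% of them had a smaller difference, so with the trend removed it was 0.43 higher. Apoe was also higher, by 0.13, with the arrays scaled to their 75th percentile, so its direction depends on the scaling. Keratinocytes also make APOE, and their markers were lower in the same comparison. The 12 measured keratinocyte markers summed to 5033 and 919.2, with 9 of 11 at or above the floor at least 1.5-fold lower and 0 higher. Removal of the trend left 8 lower and 0 higher. The part of keratinocyte RNA in the value of Apoe was not tested.

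Lipid handling genes around Apoe and Trem2 had a median of -0.35 over the 22 of 26 measured that reached the floor, 1 at least 1.5-fold higher and 6 lower. With the trend removed the median was 0.06, with 3 higher and 2 lower. Npc1, which exports cholesterol from lysosomes, read 487.7 and 156.7, 2.92-fold lower and -0.96 with the trend removed. Plin2, the coat protein of lipid droplets, read 532.4 and 268.2, 1.93-fold lower but -0.33 with the trend removed. Apoc1, the apolipoprotein gene next to Apoe on chromosome 7, read 99.4 and 51.4, 1.71-fold lower and -0.91 with the trend removed.

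The largest higher readings among the lipid genes were those of Nr1h3, Mylip and Pltp. Nr1h3, which encodes the sterol-sensing receptor LXR alpha, was under the floor at 40.9 in Il34+/LacZ and read 83.8 in Il34LacZ/LacZ, at least 1.54-fold higher. Mylip, which degrades the LDL receptor, read 276.3 and 396.7, 1.41-fold higher, and Pltp, a phospholipid transfer protein, 380.0 and 507.0, 1.32-fold higher. With the trend removed Mylip and Pltp were 1.10 and 1.02 higher, and Nr1h3 0.56, short of 1.5-fold. The cholesterol transporter gene Abca1 read 145.3 and 88.0, 1.55-fold lower and -0.42 with the trend removed. Its relative Abcg1 read 487.0 and 460.0, a difference of -0.08, or 0.54 with the trend removed.

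Trem2 and Mrc1, the surface receptors of the set, were nearly level between the arrays. Trem2 read 105.8 and 118.7, a difference of 0.15 or 1.11-fold, with 71.0% of its neighbours having a smaller difference. Mrc1, the mannose receptor CD206 of dermal macrophages, read 66.6 and 68.7, a difference of 0.04 or 1.02-fold, at 1.37 and 1.41 times the floor. For Mrc1 40.0% of the neighbours had a smaller difference, and it was -0.14 with the trend removed. The sign of both changes with the scaling, being -0.03 and -0.13 after centring of each array and 0.40 and 0.27 with the 75th percentile. Both are within the probe set SD, and a single pair of arrays cannot show that they are alike between genotypes.

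Tyrobp, the adaptor gene of TREM2, read 3347.5 and 2681.3, also apart by less than the probe set SD. Of 14 measured mannose and TREM receptor relatives 8 reached the floor, 1 past 1.5-fold upward and 3 downward, around a median of -0.03 (-0.00 with genes under the floor on 1 array set at it). Mrc2, a collagen-binding relative of Mrc1, read 41.6 and 109.2, at least 1.93-fold higher. Ly75, a relative of Mrc1 used by dendritic cells for antigen uptake, read 456.4 and 280.9, 1.59-fold lower, and the inhibitory receptor gene Cd300a 237.3 and 131.4, 1.72-fold lower. With the trend removed 1 was higher and 0 lower.

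**Figure D3:**
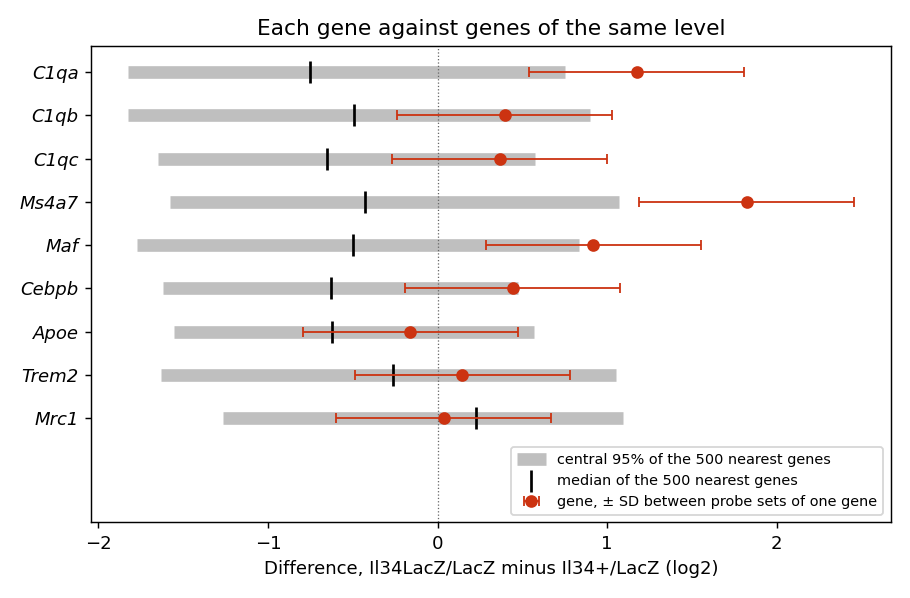
Difference between the arrays (log2, red, bars ± the 0.63 SD between probe sets of one gene) for each of the 9 genes, over the central 95% (grey) and the median (black tick) of the 500 genes nearest in level. C1qa, Ms4a7 and Maf lie above the grey range, Cebpb at its upper end, and Trem2, Apoe and Mrc1 well inside.

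Among themselves the 9 genes ran from C1qa, Ms4a7 and Maf, which lay above the central 95% of their neighbours, to Mrc1, which lay below the median of its own. Cebpb at 0.44 was just inside the upper limit of 0.47, and C1qc at 0.37 inside 0.58. Ranked within each array, which no rescaling alters, 8 of the 9 stood higher in Il34LacZ/LacZ, beside 53.8% of all genes at or above the floor, with a median shift of 7.82 percentile points. By this measure Apoe moved up from the 96.9 to the 97.9 percentile and Mrc1 down from 55.3 to 53.6.

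Other macrophage genes did not read alike. Of 30 listed, 21 reached the floor, 3 of them past 1.5-fold upward and 6 downward, around a median of -0.10 (0.17 with the trend removed, 4 up and 3 down). Pf4, a chemokine gene shared by platelets and macrophages, read 148.1 and 975.3, 6.04-fold higher. Sall1, a transcription factor gene of microglia, read 99.1 in Il34LacZ/LacZ and 35.5, under the floor, in Il34+/LacZ, at least 1.78-fold higher. Fcgr1, the high-affinity IgG receptor CD64, read 52.5 and 96.8, 1.65-fold higher. Adgre1, which encodes F4/80, read 281.0 and 144.6, 1.85-fold lower. The receptor kinase Axl read 292.1 and 109.0, 2.46-fold lower, and the prostaglandin D2 synthase gene Hpgds 1445.7 and 747.2, 1.92-fold lower. Trend removal left Fcgr1 at 0.58, Adgre1 at -0.39 and Hpgds at -0.37, each short of 1.5-fold. The genes past 1.5-fold upward were then Pf4, Sall1, Cd14 at 1.11 and Cd68 at 0.60. Those past it downward were Axl at -0.85, and Ccl8 and Cbr2, both under the floor in Il34LacZ/LacZ. The macrophage receptor genes Mertk at 21.5 and 26.8 and Cd163 at 23.0 and 35.9 were under the floor on both arrays, named after their values were seen.

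**Figure D4:**
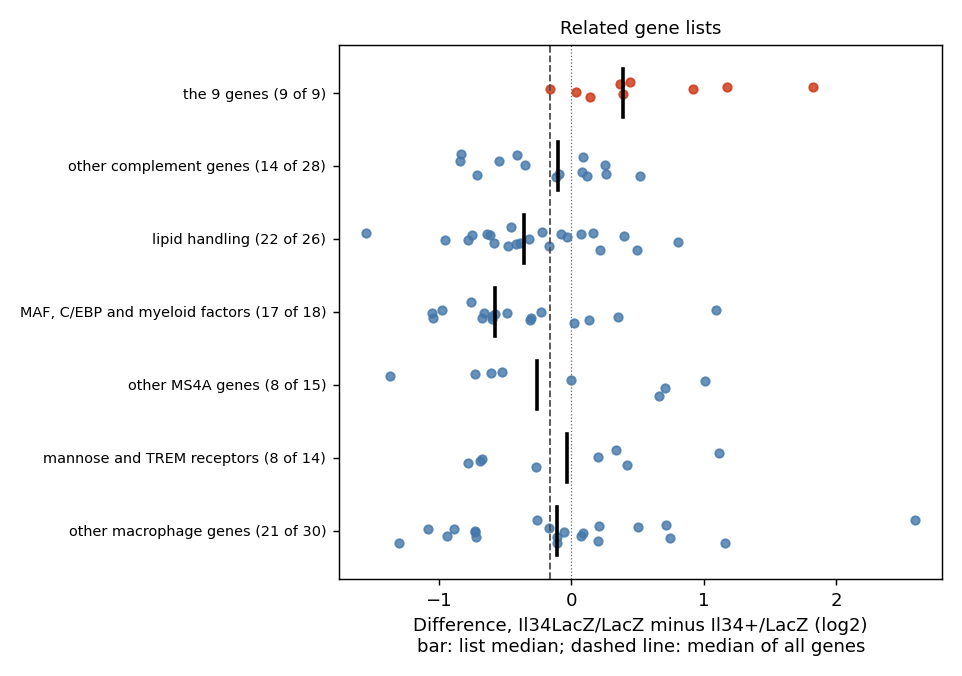
Difference between the arrays (log2) for each gene at or above the floor in the 9 genes and in related lists, 1 point a gene; counts at the left are genes at or above the floor of those measured, the bar is the list median and the dashed line the median of all genes, -0.16. The median of the 9 genes, chosen with their values known, is 0.40, and the medians of the other lists run from -0.57 to -0.03.

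Genes of the label were read in the sort, and so were genes listed as markers of other cell types. The reading of a marker list does not show that cells of that type were present. Cd207, which encodes Langerin, read 3153.0 and 1852.0, and Epcam, the other sorting marker, 632.9 and 707.7. Csf1r, which encodes the CSF1 receptor, read 2507.3 and 1510.8, 1.65-fold lower and -0.23 with the trend removed. The 11 measured Langerhans cell markers summed to 36334 and 29318, with 4 of 10 at least 1.5-fold lower and 0 higher. Over all genes at or above the floor 28.2% were that much lower and 9.36% higher. Removal of the trend with level left 1 Langerhans cell marker higher and 0 lower, around a median of 0.02. The targeted gene Il34 read 39.4 and 64.4, near the floor; the sources used here do not place its probes against the cassette, so this reading is no check of the labels. The 8 measured monocyte markers summed to 758.9 and 588.3, with 0 of 6 at the floor higher and 2 lower. Of these 6, 0 were higher and 0 lower with the trend removed. The 9 measured dermal dendritic cell markers summed to 3009 and 1771, with 0 of 7 higher and 4 lower, among them Flt3 at 330.6 and 121.0. After removal of the trend 0 of the 7 were higher and 1, Flt3, lower. Xcr1 at 27.3 and 38.1 and Clec9a at 21.0 and 35.4 were under the floor on both arrays.

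The 12 measured neutrophil markers summed to 443.5 and 1680, with 3 of 7 higher and 0 lower. S100a8 at 71.9 and 552.1 and S100a9 at 103.2 and 698.6, subunits of calprotectin, held most of the sum in Il34LacZ/LacZ, and of the other 10 markers none was above the floor in Il34+/LacZ. The 7 neutrophil markers at or above the floor, S100a8 and S100a9 included, had a median difference of 1.09. It was 0.35 with genes under the floor on 1 array set at it. The remaining 5 neutrophil markers were under the floor on both arrays. Platelet markers summed to 333.3 and 1235, of which Pf4 was 148.1 and 975.3, and 1 of 5 was higher. The 8 fibroblast markers summed to 302.7 and 496.0, with 2 of 4 at the floor higher and 0 lower, and none exceeded 112.0. The 8 endothelial markers summed to 367.3 and 538.9, with 2 of 6 higher and 0 lower, and none exceeded 136.7. Of the 8 mast cell markers 6 were under the floor on both arrays. The 8 summed to 762.8 and 432.8, which is mostly Kit in Il34+/LacZ. Of the 2 at or above the floor 0 were higher and Kit, at 547.3 and 196.1, was lower. The 5 measured B cell markers summed to 194.5 and 243.5, with 0 of 3 past 1.5-fold either way. Removal of the trend left 4 neutrophil, 1 platelet, 1 fibroblast and 3 endothelial markers higher and 0 lower. It left 0 mast cell markers higher and 1 lower. Trend-removed differences were not set at the floor, unlike the counts as deposited. The higher ones therefore include Ngp, at 16.5 and 53.5, and Kdr, at 19.9 and 56.3, which barely passed the floor on 1 array. Whether RNA of any such cells has a part in the higher readings of C1qa, Ms4a7, Maf and Cebpb was not tested.

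**Figure D5:**
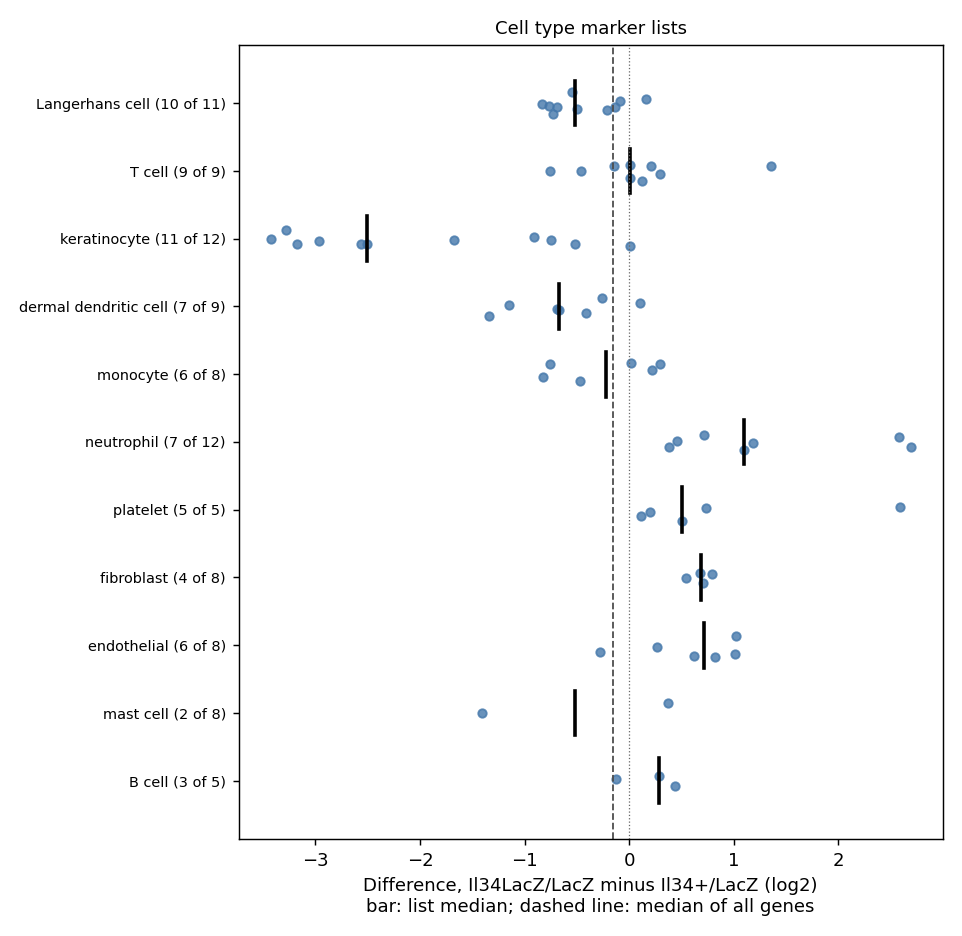
Difference between the arrays (log2) for markers of Langerhans cells and of other cell types, 1 point a gene at or above the floor; counts at the left are such genes of those measured, the bar is the list median and the dashed line the median of all genes, -0.16. Keratinocyte markers have the lowest median, -2.51, and neutrophil markers the highest, 1.09; with genes under the floor on 1 array set at it, the neutrophil median is 0.35 and the fibroblast median, 0.63, is above it.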

How the data were processed

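The deposited table gives each probe set an intensity, already processed by the authors and linear, for both arrays of a 1-colour mouse gene array; how probes were summarised, background removed and arrays scaled is not given in the sources used here. Per the labels' protocols, labelling started from 2 ng of RNA. Median intensity was 45.2 in Il34+/LacZ and 51.9 in Il34LacZ/LacZ. Of 34760 probe sets, 21640 had 1 symbol in the platform annotation, 1321 several and 11799 none; a gene was represented by its brightest single-symbol probe set. Values became log2(intensity + 16), and a fold of a gene under the floor on 1 array was computed against the floor. Counts past a fold as deposited follow that rule. Trend-removed differences and their counts do not, so the 2 kinds of count differ for genes near the floor. The loess fraction was 0.3. With 1 array per genotype no test between genotypes was possible, and the number of arrays limits the precision.

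The 9 genes and all lists were chosen with earlier results of these data known. Genes were named by a written rule: all 9, up to 3 with the largest difference in each direction per list, the brightest markers, and the 3 nearest to the C1q mean. The rule also named Il34, Csf1r, Cd207, Epcam and Tyrobp whatever their values. Not all of those are printed. The classical pathway genes C1ra, C1s1, C2 and C4b were added with their values known. So were Ms4a4a, Mertk, Cd163, Abca1, Abcg1, Cd14, Cd68, Ccl8, Cbr2, Xcr1, Clec9a, Ngp and Kdr. Trend removal and neighbour positions were tested on simulated data. The simulated noise was smaller than the SDs of 0.54 to 0.72 among neighbours, and effects were planted only in probe sets well above the floor. The simulation therefore does not cover the spread of these arrays or genes near the floor. Alternatives changed the pseudocount, scaling, floor, probe set rule and number of neighbours. Software was statsmodels 0.14.6 and scipy 1.17.1 under Python 3.11.15, with numpy 2.4.6, pandas 2.3.3 and matplotlib 3.10.9.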

Additional observations from a re-analysis of the deposited data

How the results depend on the processing

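Over 9 alternative settings of pseudocount, scaling, trend, floor and probe set rule, 0 of the 9 genes passed 1.5-fold downward in Il34LacZ/LacZ. The number at least 1.5-fold higher was 3, except with arrays scaled to the 75th percentile, with quantile normalization and with the trend removed, where it was 6. Of 79 alternative values of single genes, 0 lay further than the probe set SD from the value as deposited, and 0 of the genes at least 1.5-fold apart changed sign. The 79 include values under another floor or probe set rule, which could not differ. Removal of the trend moved some genes by nearly that SD of 0.63, C1qc from 0.37 to 0.99 and Cebpb from 0.44 to 1.06. Ms4a7 ran from 1.37 to 2.15, C1qa from 0.99 to 1.79 and Maf from 0.73 to 1.42, whereas Apoe ran from -0.36 to 0.43, Trem2 from -0.03 to 0.40 and Mrc1 from -0.14 to 0.27, on both sides of 0. The median of all genes was -0.16 as deposited, -0.36 with each array centred on its median and 0.16 with the 75th percentile, and that of the 9 genes 0.40, 0.21 and 0.67. A floor at the 75th percentile left 7 of the 9 genes, without Trem2 and Mrc1. Each of the 9 genes has 1 probe set and its difference is computed without the floor, so neither setting could alter it. The positions among neighbours, recomputed with 200 or 1000 neighbours, another pseudocount or quantile normalization, stayed inside their binomial interval except Cebpb, at 99.5% of 200. The 200 nearest genes are part of the main set of neighbours, and that set is part of the 1000. The other settings rescale the same arrays. Staying inside the interval was therefore partly built in, and these positions are no independent check. Ranking genes within each array was added after seeing the data. No paired analysis was possible because each genotype has 1 array, and for the same reason no array could be left out. Without detection calls the floor is the single guard against background signal, and Mrc1, and Ms4a7 in Il34+/LacZ, lie close to it.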
